A study of Mus musculus with 2 samples.

Results

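CTCF peaks at the 3' ends of protein-coding genes were described in liver of the mouse embryo. A peak belonged to this class when its summit, the base of strongest enrichment, lay within 1 kb of the end of a protein-coding gene record, more than 1 kb from every annotated transcript start and outside coding sequence. Of the 50888 peaks of the authors' optimal list on the placed chromosomes of mm10, 1340 met this rule, a share of 2.63% (Wilson 95% interval 2.50 to 2.78). The rule used only position, so peak strength, motif and motif strand were free to vary. The chromatin came from livers of B6NCrl embryos of both sexes at 14.5 days, collected over several dissections, pooled and pulverised. There was 1 group, with no mutant and no treatment, and 2 CTCF libraries numbered by the labels as biological replicates of 1 biosample, so the spread between them may be technical. A pooled whole organ mixes cell types: at this stage the liver holds blood-forming cells beside hepatocytes, and a peak list has no expression values with which to check the tissue.

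CTCF is a zinc finger protein that binds a long, non-palindromic DNA motif, so each site has a direction. Cohesin, which extrudes loops of chromatin, is held at CTCF sites in a way that depends on that direction, and sites at the bases of loops often point towards each other. The 3' end of a gene is where its transcript is cleaved and polyadenylated, and RNA polymerase II runs on past that point before it leaves the DNA.

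The sites under the strongest 3' end peaks show what was counted as a motif and how its direction can differ from that of the gene. Each line below gives 30 bases of mm10, read 5' to 3' on the strand that carries the motif, with the 14 positions of the core CTCF motif in capitals. The first 10 are the strongest 3' end peaks that had a match.

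Ptges2, chr2:32404848-32404877, plus strand: tcccacagCCACCAGGAGGCACtagagagc
Arap1, chr7:101412929-101412958, minus strand: gtgccagaCCAGCAGAGGGCACctctagtt
Dnajc11, chr4:151981548-151981577, plus strand: gtgagtggTCAGCAGGTGGCGCtgctgccc
Srxn1, chr2:152112099-152112128, plus strand: ttccttcaCCAGTAGGTGGCGCtgctctcc
Gna15, chr10:81502810-81502839, plus strand: acgcgcggCCACCAGGGGGAGGtatgtcct
Rps19, chr7:24890620-24890649, plus strand: ctcttcggCCACTAGGTGGCAGctgctagc
Ivd, chr2:118883565-118883594, minus strand: gcggatggCCGGTAGGGGTCAGgcgagctc
Traf4, chr11:78159236-78159265, plus strand: ctattgaaCCACCAGAGGGCAGgtgatgct
Frmd8, chr19:5850354-5850383, minus strand: agctgtgaCCAGCAGGGGGCAGctgagccc
Slc16a5, chr11:115474113-115474142, minus strand: tcctttgaCCATGAGGGGGCACtcgtgaca

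Of these 10, the motifs at Ptges2, Dnajc11, Srxn1, Rps19 and Frmd8 lay on the strand of the gene, and those at Arap1, Gna15, Ivd, Traf4 and Slc16a5 lay on the opposite strand. The next 4 lie within 1 kb of the 3' ends of a pair of genes that end towards each other, and are named by the nearer gene.

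Phldb1, chr9:44685475-44685504, minus strand: aagaatggCCACCAGGGGTCGCactgtacc
Pitx3, chr19:46135439-46135468, plus strand: cccagagaCCACCAGGTGGCGTcgcagcac
Smim24, chr10:81395325-81395354, plus strand: agcaatggCCACGAGGAGGCGGtgtcacct
Map1lc3b, chr8:121599062-121599091, minus strand: ctgctctgCCACAAGGGGGCAGtaacacag

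The last 4 belong to blood-cell regulators and ribosomal protein genes described further on.

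Lyl1, chr8:84704581-84704610, minus strand: tcccgcctCCAGCAGGGGGCGCcgatgaga
Rpl22, chr4:152333140-152333169, plus strand: agatgttcCCAGTAGGTGGAGCccctccaa
Rpl3, chr15:80076945-80076974, minus strand: ggcgtgggCCACCAGGGGGTGGgtgtagca
Lmo2, chr2:103982408-103982437, minus strand: aggaatgaCCAGCAGGTGGCGCttgaagtc

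The values are the signal that the authors' peak caller gave each peak, whose scale the sources do not state, so signals were compared within a list and read as ratios. The optimal list was derived by the authors from the peaks of both libraries pooled and of each library, with a threshold on the irreproducible discovery rate, a measure of how well peak ranks recur. A peak in it need not have a counterpart in each library. Each replicate had its own list of 300000 peaks, of which the strongest 50909 were used, as many as the optimal list holds. Read depth is unknown. With both libraries in 1 group no test between groups was possible, and none was made over peaks, which are not independent replicates. Wilson and Poisson intervals cover counting error only.

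Peaks were denser just beyond the 3' ends of genes than just inside them. The density of 3' end peaks was 39.3 per Mb of sequence that could meet the rule (exact Poisson 95% interval 37.2 to 41.5), and it averaged 39.1 ± 0.166 per Mb in the replicates (SD, n = 2). From 2 to 10 kb away, in sequence also clear of transcript starts and coding exons, it was 35.2 per Mb. The ratio between them was 1.12 in the optimal list and 1.12 ± 0.0328 in the replicates (SD, n = 2), so the excess over the flanks was small. Both stood well above the 15.7 per Mb of all such sequence in the genome, a ratio of 2.51 for the 3' ends.

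The excess lay on 1 side. In the last 1 kb inside genes the density was 33.0 per Mb (30.3 to 36.0), against 33.4 per Mb from 2 to 10 kb inside. In the first 1 kb beyond the end it was 44.8 per Mb (41.8 to 48.0), against 37.0 per Mb from 2 to 10 kb beyond. The ratio of the near to the far density was therefore 0.987 inside genes and 1.21 beyond them. Replicate 1 gave 1.02 and 1.23 for these ratios, and replicate 2 gave 0.934 and 1.21. The step lay at the end itself. The last 250 bp inside genes had 28.4 peaks per Mb (23.6 to 33.9), and the first 250 bp beyond had 45.3 (39.4 to 51.8). In replicate 1 these bins had 29.5 and 43.2 peaks per Mb, and in replicate 2 they had 28.8 and 47.2. The last bin inside was the lowest of the inside bins within 5 kb, and the 250 bp before it had 36.7 per Mb. The step between these bins is thus larger than that between the 1 kb densities of 33.0 and 44.8. The density did not drop back at 1 kb: it was 44.7 per Mb from 1 to 2 kb beyond the end, 40.7 from 2 to 5 kb and 34.3 from 5 to 10 kb.

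**Figure D1:**
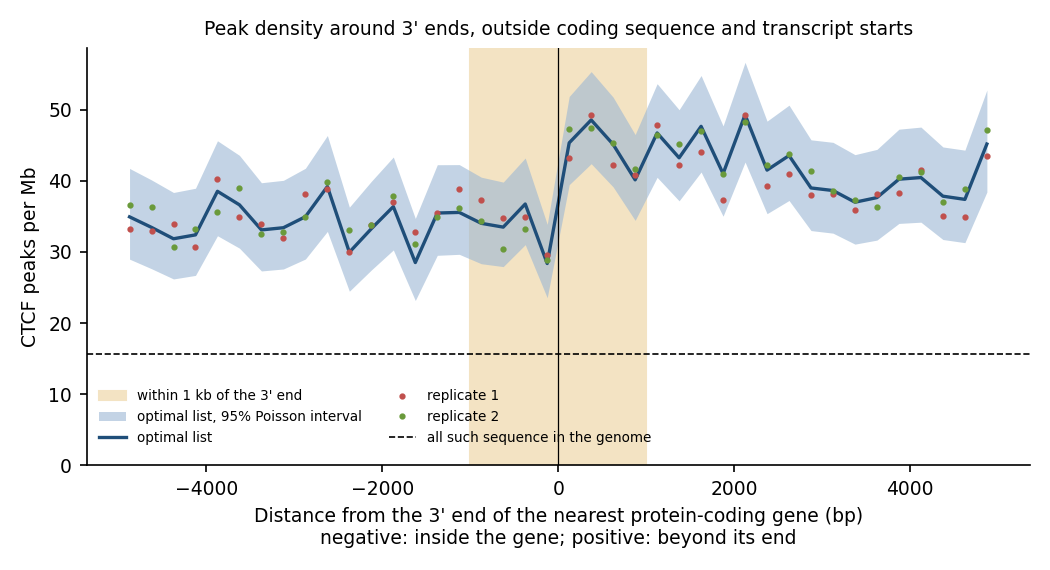
CTCF peaks per Mb (vertical axis) in bins of 250 bp by distance from the nearest 3' end (horizontal axis, in bp), with the optimal list as a line and band (95% Poisson interval) and each replicate as points. Inside the gene the line runs near 33 peaks per Mb, the last bin before the end has 28.4, it steps up past the end to 45.3, and it stays above the inside level over the first kilobases beyond.

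Of the 1340 peaks, 818 lay beyond the end of the nearest gene and 522 inside it, so 61.0% were beyond (58.4 to 63.6). The replicates gave 59.9% and 62.5%. The median position was 178 bp beyond the end, and 253 summits, or 18.9%, were within 200 bp of it. By what the annotation places at the summit, 672 peaks (50.1%) lay outside all genes and 435 (32.5%) in a 3' UTR, the untranslated tail of a transcript. A further 178 (13.3%) lay in an intron of a protein-coding gene, and 29 only in a noncoding gene. Median signal was close in the large classes, at 100.4 outside genes, 98.6 in 3' UTRs and 95.7 in introns. The 29 peaks in noncoding genes had a median of 165.

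Peaks at 3' ends were stronger than most. Their median signal was 99.9, with quartiles of 37.7 and 244 and a range from 5.19 to 652, against 68.0 for all peaks, a ratio of 1.47. In the replicates the ratio was 1.50 and 1.49, or 1.49 ± 0.00942 (SD, n = 2). Peaks 2 to 10 kb from 3' ends had a median of 90.6, and their ratio to all peaks was 1.33 in the optimal list and 1.35 ± 0.0140 in the replicates (SD, n = 2). Strength was therefore shared with the flanks. The 3' end ratio lay above theirs in both replicates, by more than the spread between replicates. That spread does not measure the spread over peaks, which was wide, with quartiles of 38.0 and 216 in the flanks. Intergenic peaks had a median of 77.3, intronic peaks 64.7, peaks in coding exons 59.8 and peaks within 1 kb of transcript starts 57.3. The flanking peaks are counted in the intergenic and intronic classes too where they lie there. Within 3' ends, the 818 peaks beyond the end had a median of 106 and the 522 inside the gene one of 93.4.

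**Figure D2:**
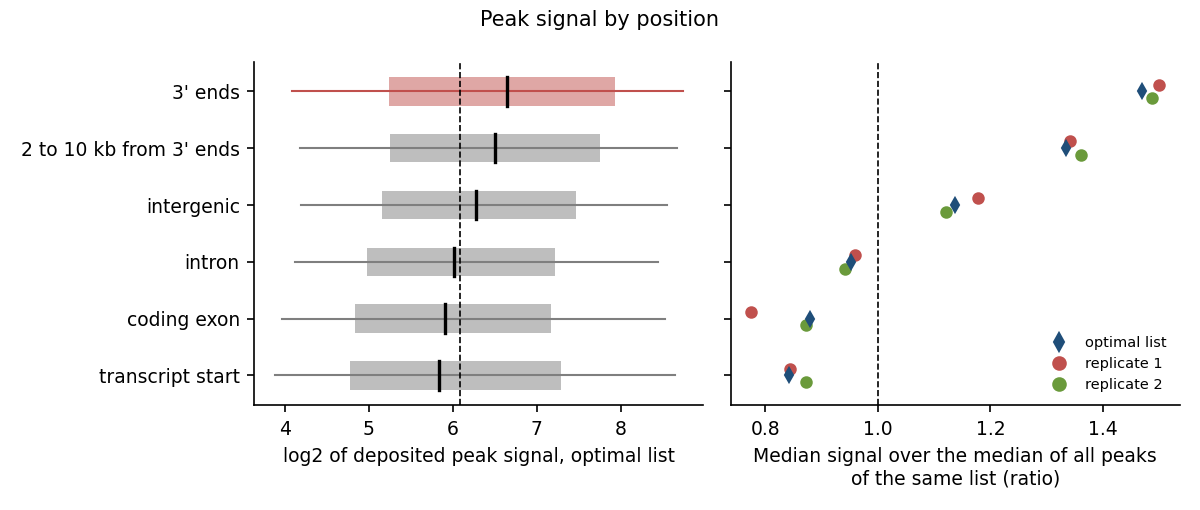
Left, log2 of the deposited signal by position, with the median as a black line, the quartiles as a box and the 5th to 95th percentiles as a thin line; the dashed line is the median of all peaks. Right, the ratio of each class median to the median of all peaks in the optimal list (diamonds) and in each replicate (circles), where 3' ends lie furthest right at 1.47, 1.50 and 1.49.

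The higher median came from the strong end of the list. Of the strongest 10% of all peaks, 251 were at 3' ends, a share of 4.93%, and in the next 10% the share was 3.30%. Each of the 7 weakest groups of this size held between 1.81% and 2.38%. Among the 1000 strongest peaks, 48 were at 3' ends, which is 3.58% of the 3' end peaks (2.71 to 4.72). The same limit took in 2.96% of the peaks 2 to 10 kb away and 1.97% of all peaks.

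**Figure D3:**
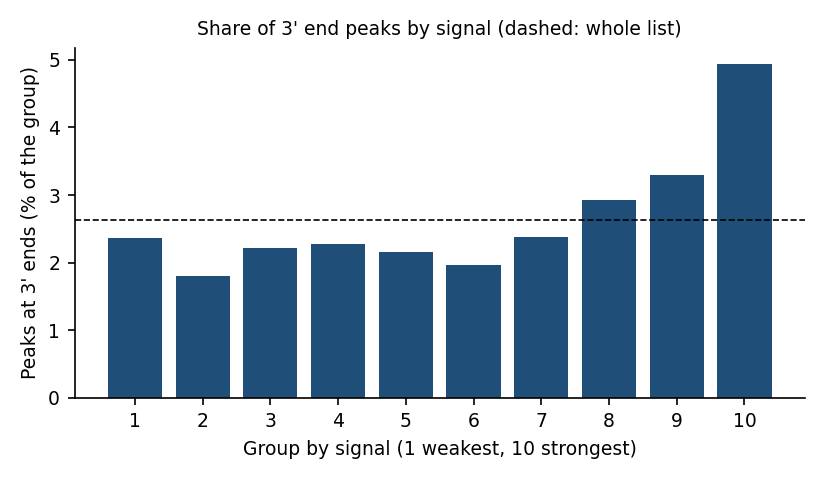
Share of peaks that lie at 3' ends (vertical axis, %) in 10 groups of equal size of the optimal list by signal (horizontal axis, weakest to strongest), with the share over the whole list dashed. The bars are level up to group 7 and climb to 4.93% in the strongest.

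The core motif was found under most 3' end peaks. A match with at most 2 mismatches, whole and within 50 bp of the summit on either strand, was present in 1012 of 1340, or 75.5% (73.1 to 77.7), against a background of 70.8% of all peaks. Replicate 1 gave 70.6% and replicate 2 gave 78.0%, a mean of 74.3% ± 5.19 (SD, n = 2), and for all peaks the mean was 68.9% ± 7.12. The share was thus near the background and near the 78.0% of the flanking peaks. It stood apart from the 49.8% of peaks at transcript starts and the 63.4% of peaks in coding exons.

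Sites without mismatches were more frequent at 3' ends than over all peaks, at 14.5% of 3' end peaks, 13.0% of flanking peaks and 10.4% of all peaks. Signal followed the match: the median was 256 for the 194 peaks with no mismatch, 139 for the 421 with 1, 76.6 for the 397 with 2 and 38.9 for the 328 without a match. At each of these steps the 3' end median was above that of all peaks, which was 195 with no mismatch, 102 with 1, 62.2 with 2 and 35.6 without a match. The flanking peaks were close to the 3' ends, with medians of 250, 129, 74.4 and 37.1 in the same order. Letter by letter the sites were much alike. The largest difference was at position 5, counted from 1 at the 5' side of the capitals, which fitted the consensus in 70.5% of 3' end sites and 66.2% of other sites.

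Motifs beyond the end of a gene tended to lie on the strand of that gene. Over all 3' end peaks with a match, 565 motifs lay on the gene's strand and 447 on the opposite strand, so 55.8% were on the same strand (52.8 to 58.9). Replicate 1 gave 57.4% and replicate 2 gave 55.8%. Inside genes the strands were even, with 186 of 371 on the gene's strand, or 50.1%. Beyond the end, 379 of 641 were on the gene's strand, or 59.1% (55.3 to 62.9), with 61.4% in replicate 1 and 59.6% in replicate 2. Intronic peaks that lay in a single protein-coding gene gave 49.2% of 13303.

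The share was highest next to the end. From 0 to 500 bp beyond it, 216 of 342 motifs, or 63.2% (57.9 to 68.1), were on the gene's strand, and both replicates were close to this at 65.0% and 63.8%. From 501 to 1000 bp the share was 54.5% (48.8 to 60.1), from 1 to 2 kb 51.9% (47.7 to 56.0) and from 2 to 5 kb 55.8% (53.3 to 58.4). Further out, from 5 to 10 kb, it was 54.2%. The flanks thus leaned the same way beyond genes, at 55.0% from 2 to 10 kb (53.2 to 56.7), and slightly the other way inside them, at 48.0% (46.2 to 49.9). Among 3' end peaks above their own median signal the share was 58.4%, and among those below it 52.3%. This contrast was seen in replicate 2, at 58.5% and 52.3%, and was nearly absent in replicate 1, at 57.6% and 56.9%. Number of mismatches made little difference: the share was 56.7% with none, 55.3% with 1 and 55.9% with 2.

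**Figure D4:**
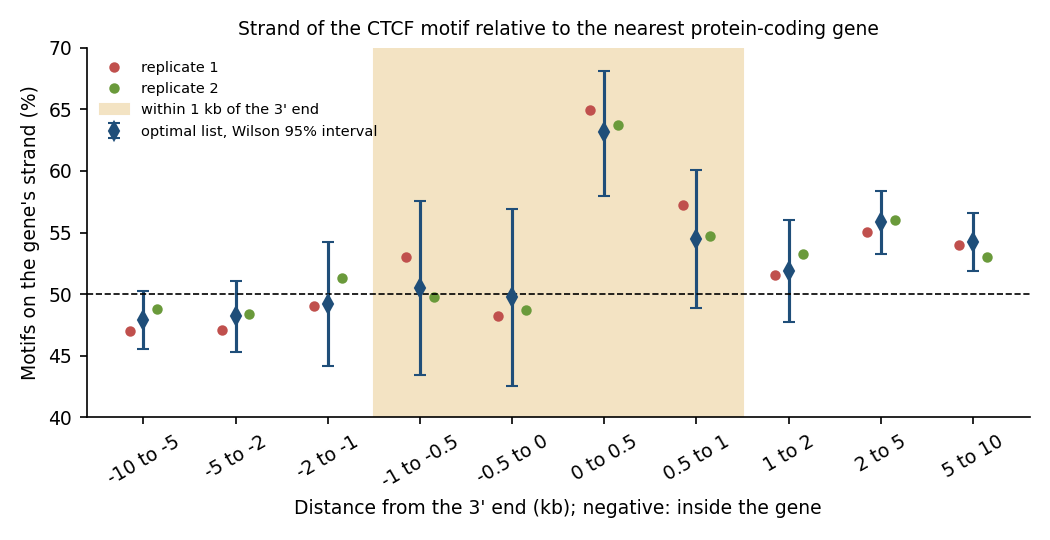
Share of CTCF motifs on the strand of the gene with the nearest 3' end (vertical axis, %, not starting at 0) by distance from that end (horizontal axis, in kb), with Wilson 95% intervals for the optimal list and each replicate as circles. The shares inside genes lie at or just under 50%, and the first 500 bp beyond the end have the highest, 63.2%.

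Peak density differed with the placing of the next gene. Ends were sorted by the gene that follows: tandem where it runs in the same direction, tail-to-tail where it ends towards the first. The density of 3' end peaks was 57.2 per Mb at tandem ends with the next gene under 5 kb away, and 53.7 at tail-to-tail ends under 5 kb. It was 34.1 at tandem ends and 32.1 at tail-to-tail ends with the next gene over 5 kb away. The flanks from 2 to 10 kb had 49.3, 50.8, 32.9 and 30.6 per Mb in these arrangements, so close neighbours went with higher density at 3' ends and around them, while the order of the close arrangements differed. Where the next gene overlapped tail to tail the density was 48.3 per Mb, and at ends inside another gene it was 47.5, with 43.1 and 34.6 per Mb in their flanks. Per gene the difference was small: 6.96% of ends had a 3' end peak in each arrangement with a gap under 5 kb, against 5.65% of tandem and 5.36% of tail-to-tail ends with a far neighbour. Overlapping tails had the lowest share, 5.11%, and ends inside another gene had 5.23%. These shares count each peak for its nearest gene only, so a peak within reach of several ends did not count for the others. The low share at overlapping tails depends in part on that rule, and no relation to nearness of the next gene is drawn from it.

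Beyond the end, motifs at tandem genes with a far neighbour were on the gene's strand in 62.6% of 254 cases (56.5 to 68.3), with 63.2% and 62.9% in the replicates. At tail-to-tail genes with a far neighbour the share was 55.4% of 148 (47.4 to 63.2). It was 58.7% of 75 at tandem ends and 53.4% of 73 at tail-to-tail ends with the next gene under 5 kb away. At overlapping tails it was 54.4% of 57, and at ends inside another gene 70.6% of 34 (53.8 to 83.2). The intervals of all these shares overlap, and the differences between the arrangements were not tested.

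Of the 21938 protein-coding genes, 1375 had a 3' end peak, or 6.27%. A peak within reach of several gene ends counted for each here. Taken by the nearest gene alone, 1214 genes had 1 such peak, 63 had 2 and none had 3 or more. Genes with a 3' end peak also had a CTCF peak within 1 kb of a transcript start in 644 cases, or 46.8% (44.2 to 49.5), against 35.2% of all genes. Genes with a peak 2 to 10 kb from the end but none at it had one in 42.6% of 5162 cases (41.3 to 44.0), so genes with CTCF further from the end were above the background as well. Gene length was alike, with medians of 18.1 kb for genes with a 3' end peak and 17.4 kb for all genes. So was the polyadenylation signal AATAAA in the last 50 bases of the gene, read on the strand of the gene and present in 60.9% of genes with a 3' end peak and 59.1% of all genes.

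In the 644 genes with a peak at the 3' end and one at a transcript start, the 3' end peak was the stronger in 359, or 55.7% (51.9 to 59.5). An annotated transcript start need not be the 5' end of the gene record, so these peaks need not lie at opposite ends of the gene. Median signal was 103 at the 3' end and 77.2 at the start, and the median distance between summits was 14.9 kb. Both peaks had a motif in 252 genes. The pair pointed towards each other in 47 (18.7%, 14.3 to 23.9) and away from each other in 74 (29.4%, 24.1 to 35.3). Both motifs ran along the gene in 75 and against it in 56. Motifs at 3' ends lean to the gene's strand by themselves. No share expected from the strands at each site was computed, so a preference in how the sites pair was not tested. Among the 97 pairs at least 20 kb apart, the direction known from loop bases was seen in 22.7% and the outward direction in 26.8%, and the intervals of these shares overlap.

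The strongest 3' end peak was at Ptges2, which encodes a prostaglandin E synthase. Its summit lay 891 bp inside the gene, in the 3' UTR, with a signal of 652, the 19th strongest of all peaks. To compare libraries, the strongest peak of each replicate within 100 bp of a summit was divided by that replicate's median signal. On this scale Ptges2 stood at 11.2 in replicate 1 and 8.36 in replicate 2. The next was 385 bp beyond Arap1, a regulator of small GTPases, with a signal of 580 and relative signals of 10.1 and 7.56. It lay in an intron of the overlapping gene Gm45837, and its motif ran against Arap1.

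Among the others of the strongest 15, Srxn1, which encodes sulfiredoxin, an enzyme that repairs oxidised peroxiredoxins, had a peak of signal 576 at 745 bp beyond its end. Ivd, an enzyme of leucine breakdown, had one of 563 at 664 bp beyond. Hpd, an enzyme of tyrosine breakdown made by hepatocytes, had one of 548 at 56 bp beyond its end, inside an intron of the proteasome assembly gene Psmd9. The peaks at Hpd and Mob3a were the only ones among the strongest 15 without a motif match. Dnajc11, Slc16a5 and Dand5, an antagonist of Nodal signalling, carried theirs inside the 3' UTR, with signals of 578, 529 and 521. Gna15, a G protein subunit of blood cells, had one of 565 in its 3' UTR, and Frmd8 one of 548.

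The remaining peaks of the strongest 15 were at Rps19, Traf4, Mob3a, Il12rb1 and Ripor1, with signals between 522 and 563. Il12rb1 encodes a subunit of interleukin receptors. All 15 ranked among the strongest 362 peaks of replicate 1 and the strongest 377 of replicate 2. Relative signal ran from 9.05 to 11.2 in replicate 1 and from 6.41 to 8.36 in replicate 2, higher in replicate 1 for each of the 15.

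**Figure D5:**
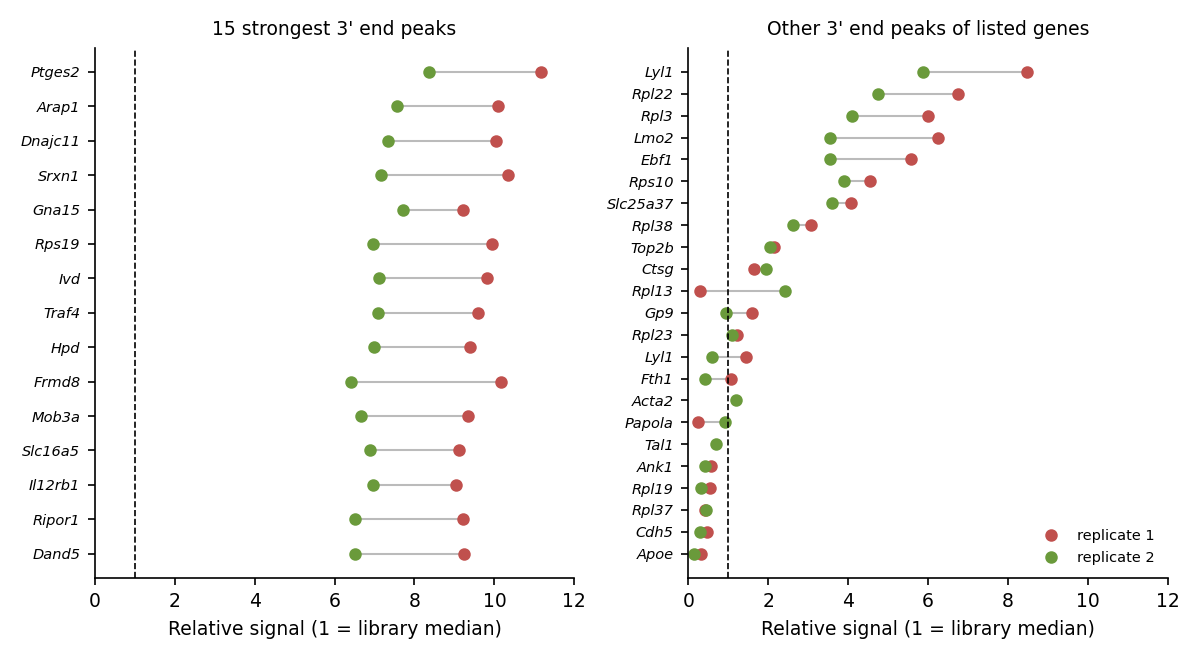
Relative signal (horizontal axis, 1 is the median of that replicate's strongest peaks) of the 15 strongest 3' end peaks (left) and of other 3' end peaks of listed genes (right), with each replicate as a circle joined by a line. All of the left panel lies above 6 in both replicates, while the right panel spans 0.147 to 8.47; Tal1 and Acta2 have a circle for replicate 2 only, and Lyl1 appears with both of its peaks.

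Ribosomal protein genes had the largest share of 3' end peaks among 9 gene lists. The lists were chosen with earlier results of these data known, so this ranking is descriptive, and the share was not tested. Of 76 genes for cytosolic ribosomal proteins, 11 had one, or 14.5% (8.28 to 24.1), against 6.27% of all genes. They included Rpl3, Rpl13, Rpl19, Rpl22, Rpl23, Rpl37, Rpl38, Rps10 and Rps19. The peak lay beyond the end in 10 of 11, Rpl22 being the exception at 918 bp inside, against 61.0% of all 3' end peaks. The motif lay on the gene's strand in 9 and on the opposite strand at Rpl23. Over all 3' end peaks with a match, 55.8% were on the gene's strand, and 59.1% of those beyond the end. With so few ribosomal peaks these differences were not tested. A CTCF peak at a transcript start was found for 48 of the 76, or 63.2%, against 35.2% of all genes. Signals ran from 29.8 at Rpl37 to 563 at Rps19, with a median of 193.

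Rps19, whose human counterpart is mutated in Diamond-Blackfan anaemia, had its peak 825 bp beyond the end, with relative signals of 9.95 and 6.97. Rpl22 followed at a signal of 381 and relative signals of 6.76 and 4.75, and Rpl3 at 329 with 5.99 and 4.09. Rps10 had 280 and Rpl38 193, each with relative signals of 2.61 or more in both replicates. The replicates disagreed at Rpl13, with 0.286 in replicate 1 and 2.42 in replicate 2. The peak 829 bp beyond Rpl13 lay in an intron of the annotated gene Gm20388, and the one 974 bp beyond Rps10 in an intron of the RPS10-NUDT3 readthrough record.

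Genes of red cell formation carried 3' end peaks in 4 of 34 cases, or 11.8% (4.67 to 26.6), an interval that holds the 6.27% of all genes. Lyl1, a blood transcription factor, had a strong peak 120 bp inside its end, of signal 470 and relative signals 8.47 and 5.88. A weaker one lay 899 bp inside, of signal 69.1. Both Lyl1 peaks also lay within the record of Nfix. Lmo2, a partner of such factors, had a peak 545 bp beyond its end, of signal 318 and relative signals 6.25 and 3.55. The Lmo2 peak lay in an intron of the gene 4931422A03Rik. The sites of both Lyl1 and Lmo2 printed above had no mismatch and ran against the gene. Tal1, another blood transcription factor, and Ank1, which encodes the ankyrin of the red cell membrane, had weak peaks of 34.6 and 34.1. The Tal1 peak had a counterpart in replicate 2, at a relative signal of 0.699, and none in replicate 1.

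Among 25 heme and iron genes, 2 had 3' end peaks. Slc25a37, the mitochondrial iron importer mitoferrin, had one of signal 252 at 107 bp beyond its end, with relative signals of 4.07 and 3.59. Fth1, the ferritin heavy chain, had one of 51.0, which lay in the 3' UTR of Best1, a gene that ends towards it 76 bp away. Of 33 hepatocyte genes only Apoe had one, the weakest named here at a signal of 17.1 and relative signals of 0.315 and 0.147. Of 25 genes of other blood cells, 3 had one: Ebf1, a B cell transcription factor, at 303, the neutrophil protease gene Ctsg at 120 and the platelet glycoprotein gene Gp9 at 84.9.

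Of 21 endothelial and mesenchymal genes, Cdh5 had a peak of 26.2 and the smooth muscle actin gene Acta2 one of 48.2, the second of which had a counterpart in replicate 2 only. Among 25 genes of cohesin, CTCF and their partners, Top2b had one of 135 at 914 bp inside its end. Top2b encodes a topoisomerase known to sit at CTCF sites. The summit also lay within the record of Rarb. Papola, the poly(A) polymerase, was the only 1 of 25 cleavage and polyadenylation genes with one, of 40.3, and the replicates gave it 0.247 and 0.910. None of 28 cell cycle genes had one, which allows a share of up to 12.1% by the upper Wilson limit. Apart from the ribosomal proteins, the lists gave at most 4 genes each, and the interval of each of these 8 lists held the 6.27% of all genes.

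Some peaks lay within 1 kb of the ends of 2 genes that end towards each other. There were 80 of these at 77 gene pairs, or 5.97% of the 3' end peaks. The median gap between the ends was 116 bp, in 32 cases the ends overlapped, and 29 summits lay between the ends. Their median signal was 133, against 98.2 for the other 1260 peaks, and 78.8% against 75.3% had a motif. Without them, 56.1% of the motifs were on the strand of the nearest gene (52.9 to 59.2), near the 55.8% with them.

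The strongest of these lay in Treh, the trehalase gene, 808 bp past the end of Phldb1, with a signal of 495 and relative signals of 8.86 and 5.99. The next lay in the 3' UTR of Elovl3, a fatty acid elongase, and 222 bp past the end of the transcription factor gene Pitx3, with a signal of 478. Others were at Smim24 and Nfic (443) and at the autophagy gene Map1lc3b and Zcchc14 (403). Ends of the Smim24 and Nfic pair were 794 bp apart, whereas the genes of each of the other 3 pairs named here overlapped at their ends.

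Some genes had motifs under both a 3' end peak and a peak at a transcript start. The strongest 3' end peaks among them were at Arap1, Dnajc11, Gna15, Rps19 and Polr2c. The start meant here is any annotated transcript start, which need not be the 5' end of the gene record. Dnajc11 had signals of 578 at the 3' end and 318 at the start, 47.9 kb apart, and Polr2c, which encodes a subunit of RNA polymerase II, had 503 and 319, 13.0 kb apart. Both motifs of Dnajc11 ran along the gene. At Rps19 the 3' end peak had 563 and the start 212, again both along the gene. Gna15 had 565 at the 3' end and 23.3 at the start, and Arap1 had 580 and 74.9, with both motifs against the gene in each. The summits lay 21.5 kb apart at Gna15, 8.94 kb apart at Arap1 and 6.62 kb apart at Rps19. The motifs of Polr2c pointed away from each other. None of the 5 genes had the inward-facing arrangement.

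Most 3' end peaks had a counterpart in both libraries. Of the 1340, a summit within 100 bp was found for 1309 in replicate 1 and 1301 in replicate 2, and for 1274 in both. Over all 50888 peaks the counts were 49147, 49096 and 47590, so recurrence was high in the whole list. These counts used the full list of each replicate, not only its strongest peaks. The optimal list was derived from these same libraries with a threshold on how well peak ranks recur. High recurrence was therefore in part selected for, so the counts are read only against other peaks of the list. Among the strongest peaks of both replicates were 1088, or 81.2% (79.0 to 83.2), against 76.7% of all peaks and 81.3% of the flanking peaks. The authors' conservative list, a stricter set, held 1185, or 88.4% (86.6 to 90.0), against 86.4% of all peaks. The 155 peaks left out of it had a median signal of 19.5 and the 1185 in it one of 130. Recurrence was thus close to the background and went with strength.

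Base composition and repeats differed between 3' ends and their surroundings. The median GC content within 100 bp of the summit was 51.2% at 3' ends, 49.3% in the flanks, 58.2% at transcript starts and 50.2% over all peaks. Repeat sequence, lower case in the reference, held 250 of the summits, or 18.7% (16.7 to 20.8), against 27.7% of flanking peaks and 22.5% of all peaks. The higher signal relative to all peaks was seen at each level of GC, but that relative to the flanks was not. Below 50% GC the median was 74.6 for 571 peaks at 3' ends, 75.2 in the flanks and 62.8 for all peaks. From 50 to 60% it was 146 for 674 peaks at 3' ends, 131 in the flanks and 83.7 for all. Above 60% GC it was 131 for 95 peaks at 3' ends, 125 in the flanks and 55.1 for all.

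Over the 19 autosomes, the median signal of 3' end peaks was above that of all peaks on 18, with ratios from 0.881 on chromosome 18 to 2.39 on chromosome 16. These chromosomes held 25 and 23 of the peaks. The share of peaks at 3' ends ran from 1.46% on chromosome 16 to 3.55% on chromosome 7. On the X chromosome 17 of 948 genes, or 1.79%, were nearest to a 3' end peak, below every autosome. By share of peaks it was not the lowest: 17 of its 1097 peaks, or 1.55%, were at 3' ends, above chromosome 16.

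The limit of 1 kb did not fall on a break in the data. The 126 peaks from 900 to 1000 bp from an end had a median signal of 94.4 and a motif in 76.2%. Just outside the limit, the 136 peaks from 1001 to 1100 bp had a median of 95.2 and a motif in 74.3%.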

How the data were processed

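CTCF ChIP-seq was measured in 2 libraries of pooled embryonic liver. Per the file headers, the authors called narrow peaks on mm10 for each library against a control and for both pooled, and deposited optimal and conservative lists thresholded by irreproducible discovery rate. The deposited value used is the signal of each peak, comparable within a list. The peak caller and aligner are not given in the sources used here, and read depth is unknown.

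Summits were placed on the comprehensive GENCODE vM21 annotation. The 21 optimal peaks off placed chromosomes were left out. Sequences and motif matches came from RefSeq GRCm38.p6, the assembly of mm10. Density used every base that is not N, lies more than 1 kb from transcript starts and is outside coding sequence. Members and gene lists were chosen with earlier results of these data known. Named are the 15 strongest peaks, listed genes with a peak (up to 6 per list in full) and the 5 strongest at tail-to-tail pairs. Also named are the 5 strongest of genes with motifs at both the 3' end and a transcript start. A further 4 ribosomal protein genes and the weaker Lyl1 peak were named after their values were seen. Some genes that the rule names are not reported here. Motif search, placement and densities were tested on simulated data. Python 3.11.15, numpy 2.4.6, pandas 2.3.3 and scipy 1.17.1 were used.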

Additional observations from a re-analysis of the deposited data

How the results depend on the processing

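Depth is unknown, both libraries come from 1 biosample, and no result rests on a test between groups. Results were recomputed under other peak lists, distances, annotations and motif settings. The density ratio ranged from 1.09 to 1.14 over 11 alternatives, each within the spread between replicates. The share beyond the end left that spread only outside repeat sequence, at 58.9%. A further 3 alternatives were chosen after seeing the data: the basic transcript set, peaks among the strongest of both replicates, and summits outside repeats.

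The number of 3' end peaks was 789 above the median signal, 705 within 500 bp, 2564 within 2 kb and 2018 with the ends of all protein-coding transcripts. Their share of peaks was 3.10%, 1.39%, 5.04% and 3.97% in the same order, 2.87% and 2.18% with transcript starts left out within 500 bp and 2 kb, 2.78% with the basic transcript set and 2.79% in both replicates' strongest peaks. The motif share was 87.5% above the median signal, 81.4% in both replicates' strongest peaks, 45.9% with at most 1 mismatch, 91.8% with at most 3 and 68.1% within 30 bp of the summit. The share of motifs on the gene's strand was 57.7% above the median signal, 58.5% within 500 bp, 53.4% within 2 kb, 52.1% with transcript ends, 57.2% in both replicates' strongest peaks and 57.3% outside repeats, and stayed above 50% in all 16 alternatives.

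The median signal ratio was 1.50 in the conservative list, 1.28 above the median signal, 1.45 within 500 bp, 1.43 within 2 kb, 1.45 and 1.49 with transcript starts left out within 500 bp and 2 kb, 1.38 with transcript ends, 1.45 with the basic transcript set and 1.67 outside repeats. With either replicate left out the number ranged from 1330 to 1338, the share of peaks from 2.61% to 2.63%, the motif share from 70.6% to 78.0%, the share on the gene's strand from 55.8% to 57.4%, the signal ratio from 1.49 to 1.50, the share beyond the end from 59.9% to 62.5% and the density ratio from 1.09 to 1.14. The causes of these shifts were not tested. No paired analysis was possible because both libraries belong to 1 group.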
